A study of Mus musculus with 2 samples.

Results

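The Hox genes of the lumbar dorsal cord were described here in nuclei of the dynorphin lineage. Their 24 members were all genes of the deposited count table, which lists 19575 genes, whose symbol is Hox, a letter from a to d and a number. Cluster A held 6 of them, cluster B 8, cluster C 5 and cluster D 5, and 12 paralogue groups had at least 1 member. Other Hox genes were not analysed here. With at least 100 UMIs (unique molecular identifiers, each counting 1 captured RNA molecule) over all nuclei, 21 members are given below by class. Hoxa11 and Hoxc12 were among those that stayed under that number and are given by their counts.

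Nuclei were sorted for green fluorescence from dorsal L3-L5 cord and sequenced in droplets with 10x Genomics chemistry. All mice, in both groups, had the genotype Pdyn-IRES-Cre(+/-); R26-LSL-Sun1.eGFP(+/-), in which Cre made from the prodynorphin locus switches on a nuclear envelope GFP for good, so a nucleus may come from a cell that made prodynorphin only earlier in life. The injured library pooled 8 adult mice of either sex with an incision of the left plantar hindpaw at postnatal day 3. The naive library pooled 8 adult littermates of either sex that were exposed to isoflurane at postnatal day 3. The study asks what an early injury leaves behind in these cells, and the comparisons below set classes of nuclei side by side within each library, and the 2 libraries side by side within a class. With a single pooled library in each group, differences have no replicate check, no test was made, and every interval (95%) covers counting error only.

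Hox genes encode transcription factors with a homeodomain, the DNA-binding fold. In mammals they lie in 4 clusters, A to D, and genes with the same number, called paralogues, descend from a common ancestral gene. Low-numbered genes start to be expressed in the hindbrain and high-numbered genes only towards the tail, so that a segment of the cord is marked by a combination of members. In the cord they are best known for the identity of motor neurons, where groups with middle numbers act at the level of the forelimb and groups with high numbers at the level of the hindlimb. Hoxb8 is also known in mice for the organisation of the dorsal horn.

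Members of a group share most of the homeobox, the stretch that encodes the homeodomain. Over its 180 bases, the 15 pairs of members within a group were identical at 74.4% to 92.8% of bases (median 81.7%), against 50% to 88.9% (median 62.2%) for the 261 pairs from different groups. The last 20 codons, 41 to 60, encode the recognition helix that lies in the major groove and the residues after it. They are shown for groups 10 and 11, which hold Hoxc11, Hoxd10 and Hoxd11, members that differed by at least 2-fold between classes of neurons, and Hoxa10, which differed between Pkd2l1-positive and inhibitory-like nuclei, so that paralogues with unlike levels can be compared. Sequences are from GENCODE M21 on mm10, on the coding strand, and capitals mark bases that differ from the first member of the same group.
Hoxa10, chr6:52232554-52232613, minus strand: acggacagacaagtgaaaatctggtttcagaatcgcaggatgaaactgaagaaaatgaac
Hoxc10, chr15:102970968-102971027, plus strand: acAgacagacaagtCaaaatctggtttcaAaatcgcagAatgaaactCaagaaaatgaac
Hoxd10, chr2:74694261-74694320, plus strand: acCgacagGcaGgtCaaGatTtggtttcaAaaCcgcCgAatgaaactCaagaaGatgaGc
Hoxa11, chr6:52243402-52243461, minus strand: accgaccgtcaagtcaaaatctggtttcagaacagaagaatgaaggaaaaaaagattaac
Hoxc11, chr15:102956600-102956659, plus strand: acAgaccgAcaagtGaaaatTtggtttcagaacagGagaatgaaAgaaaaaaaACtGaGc
Hoxd11, chr2:74684037-74684096, plus strand: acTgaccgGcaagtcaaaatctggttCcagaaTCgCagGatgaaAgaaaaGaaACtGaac
In this window Hoxd10 differed from Hoxa10 at 13 bases and Hoxc10 at 5, and Hoxd11 differed from Hoxa11 at 12 bases and Hoxc11 at 10. The annotated transcripts of most members were distinct at the length of a read: Hoxc10 and Hoxc5 shared 78 runs of 91 bases, and no other pair of members shared any. Introns and overlapping genes outside the members were not compared, so this does not show how UMIs were assigned.

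The injured library held 3547 nuclei with a median of 8464 UMIs and the naive library 4063 with a median of 6955, and 3 cell barcodes occurred in both. Classes were rebuilt from clusters made without the Hox loci, so their borders need not be the study's. Excitatory-like nuclei numbered 804 and 923 in the injured and the naive library, inhibitory-like nuclei 2154 and 2552, Pkd2l1-positive nuclei 48 and 106, astrocyte/ependymal-like nuclei 47 and 54, and oligodendrocyte-like nuclei 45 and 42. Another 449 injured and 386 naive nuclei stayed unnamed. Slc17a6 and Gad1 were among the genes used to name the neuron classes, so their levels describe the classes and do not check them. The glutamate transporter gene Slc17a6 was at 212 and 222 CPM (counts per 1000000 UMIs of the class) in excitatory-like nuclei of the injured and naive library. In inhibitory-like nuclei it was at 3.25 and 4.24 CPM. Gad1, which makes GABA, was at 6.19 and 6.9 CPM in excitatory-like nuclei, against 104 and 118 CPM in inhibitory-like nuclei.

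A Hox UMI was found in nearly every neuron and in most astrocyte/ependymal-like nuclei. At least 1 Hox UMI was found in 99.8% of excitatory-like nuclei of each library, and in 97.4% of injured and 97.3% of naive inhibitory-like nuclei. Pkd2l1-positive nuclei had one in 100% (injured) and 96.2% (naive), and astrocyte/ependymal-like nuclei in 80.9% and 83.3%. Oligodendrocyte-like nuclei had a Hox UMI in 13.3% (injured) and 33.3% (naive) at median depths of 2593 and 2146 UMIs. After thinning every nucleus to 1500 UMIs, the expected share was 68.4% (injured) and 72.4% (naive) in excitatory-like nuclei and 58.8% and 64.7% in inhibitory-like nuclei. It was 78.5% and 74.2% in Pkd2l1-positive nuclei, 54.5% and 70.4% in astrocyte/ependymal-like nuclei, and 8.4% and 22.5% in oligodendrocyte-like nuclei. The number of different Hox genes in a thinned nucleus followed the same order, with a thinned mean of 1.1 (injured) and 1.24 (naive) in excitatory-like nuclei and 0.867 and 1.01 in inhibitory-like nuclei. Thinning left out 5 injured and 5 naive inhibitory-like nuclei and 1 injured and 5 naive oligodendrocyte-like nuclei with fewer UMIs, and no excitatory-like ones. It also left out 3 naive Pkd2l1-positive and 7 naive astrocyte/ependymal-like nuclei. A single excitatory-like nucleus held UMIs of up to 16 of the 24 members in the injured library and up to 13 in the naive library.

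**Figure D1:**
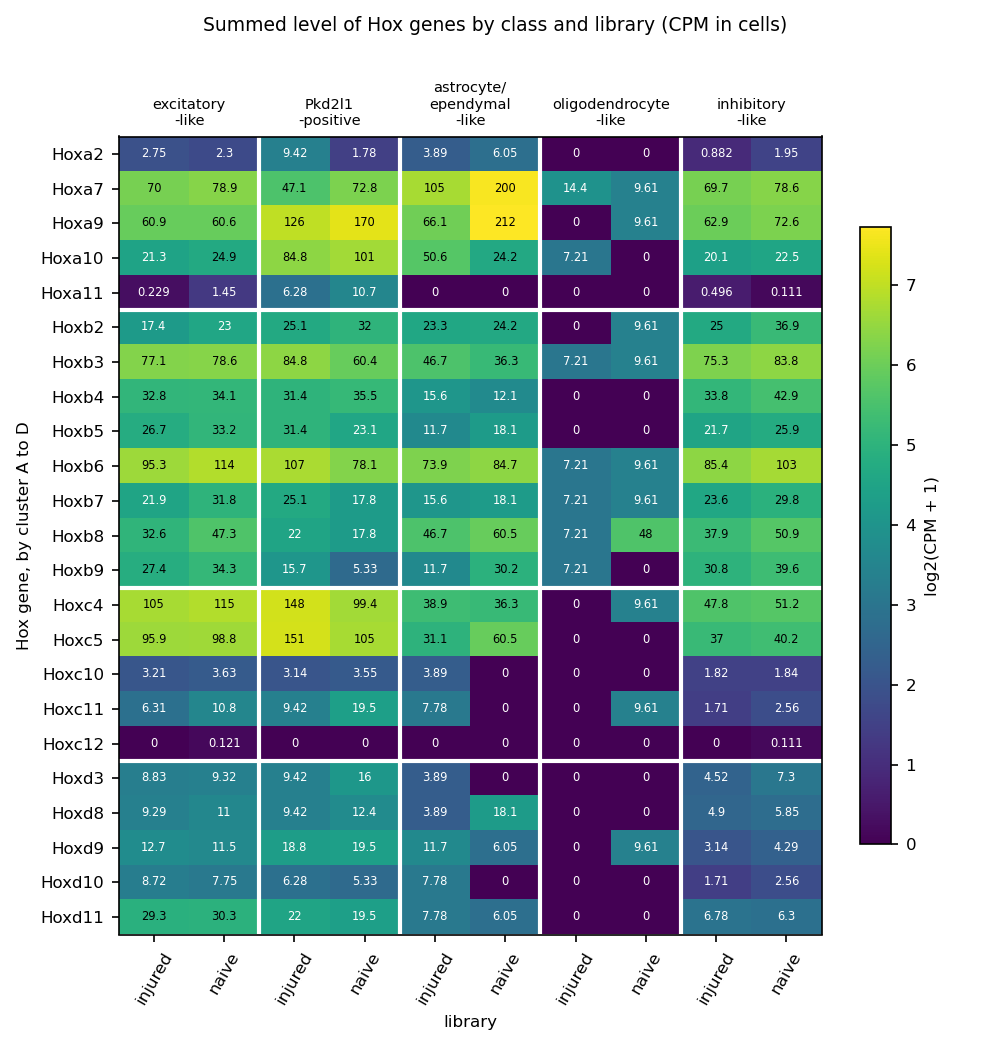
Level of Hox genes (rows, by cluster A to D) in each class and library (columns), in CPM of summed UMIs printed in the cells and as log2(CPM + 1) by colour. Cluster C and D members are brighter in excitatory-like and Pkd2l1-positive than in inhibitory-like columns, and the oligodendrocyte-like columns hold 8 and 14 Hox UMIs in all.

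In sum, the 24 members reached 766 CPM (748 to 785) in injured and 863 CPM (843 to 883) in naive excitatory-like nuclei, against 597 CPM (586 to 608) and 711 CPM (699 to 724) in inhibitory-like nuclei. The ratio of excitatory-like over inhibitory-like nuclei was 1.28 (1.24 to 1.32) in the injured and 1.21 (lower bound 1.18) in the naive library. The surplus lay in 2 of the 4 clusters. Cluster C was at 211 and 228 CPM in injured and naive excitatory-like nuclei, against 88.3 and 95.9 CPM in inhibitory-like nuclei, ratios of 2.39 (2.23 to 2.55) and 2.38 (2.23 to 2.54). Cluster D was at 68.8 and 69.8 CPM in excitatory-like nuclei, against 21 and 26.3 CPM in inhibitory-like nuclei, ratios of 3.27 (2.87 to 3.73) and 2.66 (2.35 to 3). Clusters A and B were nearly level between these classes. Cluster A had ratios of 1.01 (0.944 to 1.08) in the injured and 0.957 (0.898 to 1.02) in the naive library, and cluster B 0.993 (0.95 to 1.04) and 0.96 (0.921 to 1). Female-like nuclei (Xist UMIs and no Y-linked ones) and male-like nuclei (the reverse) stem from separate animals and gave a summed ratio of 1.3 and 1.26 in the injured library and of 1.22 and 1.2 in the naive library.

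The paralogue code of the neurons covered the low, middle and high numbers. Groups 1 to 5 made up 47.9% of the Hox UMIs in injured and 45.7% in naive excitatory-like nuclei, against 41.2% and 40.8% in inhibitory-like nuclei. Groups 6 to 8 made up 29.9% and 32.8% in excitatory-like nuclei, against 37.1% and 37.8% in inhibitory-like nuclei. Groups 9 to 12 made up 22.2% and 21.5% in excitatory-like nuclei, against 21.7% and 21.4% in inhibitory-like nuclei. High numbers took a like share of these UMIs in both classes, but from different members. Group 11 made up 4.67% and 4.92% of Hox UMIs in excitatory-like nuclei, against 1.5% and 1.26% in inhibitory-like nuclei. Group 9 made up 13.2% and 12.3%, against 16.2% and 16.4%. All these shares are of the UMIs of the 24 members. Hox genes outside them were not counted, so shares of all Hox RNA were not measured. Hoxc5 is counted in groups 1 to 5. Other genes, Hox genes of higher groups among them, overlap 60.9% of its span on the same strand. Some UMIs counted in groups 1 to 5 may therefore belong to higher groups.

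**Figure D2:**
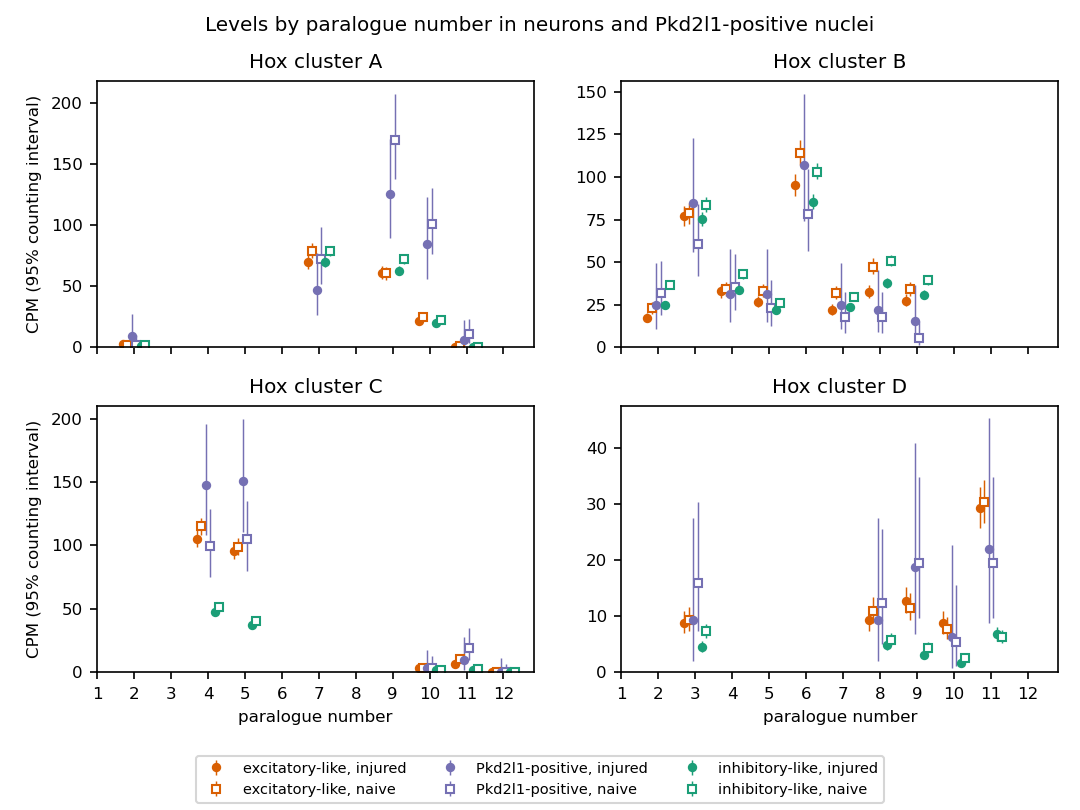
Level in CPM (95% counting interval) against paralogue number, 1 panel for each Hox cluster, in excitatory-like, Pkd2l1-positive and inhibitory-like nuclei of the injured (filled) and naive (open) library. Hoxc4, Hoxc5, Hoxd8, Hoxd9, Hoxd10 and Hoxd11 separate excitatory-like from inhibitory-like nuclei in both libraries, and Hoxa9 and Hoxa10 separate Pkd2l1-positive nuclei from both.

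In cluster C, Hoxc4 and Hoxc5 carried most of the UMIs. Hoxc4 (mm10 chromosome 15, 103018934 to 103036852, plus strand) was at 105 CPM (98.7 to 112) in injured and 115 CPM (108 to 122) in naive excitatory-like nuclei, against 47.8 CPM (44.7 to 51.1) and 51.2 CPM (48 to 54.6) in inhibitory-like nuclei. Its ratio of excitatory-like over inhibitory-like nuclei was 2.2 (2.01 to 2.42) in the injured and 2.24 (2.05 to 2.46) in the naive library. It was found in 61.3% and 58.8% of excitatory-like nuclei, against 29.7% and 27.7% of inhibitory-like nuclei. Median depths were 9978 and 8164 UMIs in excitatory-like, against 7833 and 6667 UMIs in inhibitory-like nuclei. The part of depth in these shares was not tested. In oligodendrocyte-like nuclei Hoxc4 had 0 UMIs in the injured and 1 in the naive library. The intervals of excitatory-like and inhibitory-like nuclei did not overlap in either library.

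Hoxc5 (chromosome 15, 102967443 to 103017429, plus strand) was at 95.9 and 98.8 CPM in injured and naive excitatory-like nuclei, against 37 and 40.2 CPM in inhibitory-like nuclei, ratios of 2.59 (2.34 to 2.88) and 2.46 (2.22 to 2.72). Other genes, among them Hoxc10, overlap 60.9% of its annotated span on the same strand, so some of its UMIs may belong to them. Hoxc10 (chromosome 15, 102966796 to 102971893), a gene of the lumbar level in motor neurons, was low: 3.21 and 3.63 CPM in excitatory-like nuclei, against 1.82 and 1.84 CPM in inhibitory-like nuclei, with 87.3% of its span inside that of Hoxc5. Hoxc11 (chromosome 15, 102954427 to 102957708), which no other annotated gene overlaps, was at 6.31 CPM (55 UMIs) and 10.8 CPM (89 UMIs) in injured and naive excitatory-like nuclei, against 1.71 CPM (31 UMIs) and 2.56 CPM (46 UMIs) in inhibitory-like nuclei. Its ratios were 3.69 (2.34 to 5.94) and 4.2 (2.91 to 6.14), and the interval lay above those of Hoxc4 and Hoxc5 in the naive library and overlapped them in the injured library. Hoxc12 had 0 UMIs in the injured library and 5 in the naive library.

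All 5 members of cluster D had higher values in excitatory-like nuclei. Hoxd11 (chromosome 2, 74679557 to 74687016, plus strand), known from the forearm and shank of the limb, led the cluster: it was at 29.3 CPM (25.8 to 33.1) in injured and 30.3 CPM (26.6 to 34.3) in naive excitatory-like nuclei, against 6.78 CPM (5.63 to 8.09) and 6.3 CPM (5.19 to 7.57) in inhibitory-like nuclei. Its ratios were 4.32 (3.47 to 5.4) and 4.8 (3.83 to 6.05). It was found in 20.3% and 18.6% of excitatory-like nuclei, against 4.18% and 3.57% of inhibitory-like nuclei, which were shallower. Oligodendrocyte-like nuclei had 0 UMIs in either library, which allows up to 21.6 CPM (injured) and 28.8 CPM (naive). That allowance is above both inhibitory-like values, so a lower level in oligodendrocyte-like nuclei is not shown. Hoxd10 (chromosome 2, 74691924 to 74695105), a gene of lumbar motor neurons, was lower, with 8.72 and 7.75 CPM in excitatory-like nuclei, against 1.71 and 2.56 CPM in inhibitory-like nuclei, ratios of 5.1 (3.32 to 8.02) and 3.02 (2.04 to 4.51). The annotated predicted gene Gm28309, not analysed here, overlaps 71.4% of the Hoxd10 and 47.9% of the Hoxd11 span on the same strand.

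Hoxd9 (chromosome 2, 74697727 to 74700208), free of overlap, was at 12.7 CPM (111 UMIs) and 11.5 CPM (95 UMIs) in injured and naive excitatory-like nuclei, against 3.14 CPM (57 UMIs) and 4.29 CPM (77 UMIs) in inhibitory-like nuclei, ratios of 4.05 (2.92 to 5.68) and 2.68 (1.96 to 3.67). Hoxd8 was at 9.29 and 11 CPM in excitatory-like nuclei, against 4.9 and 5.85 CPM in inhibitory-like nuclei, ratios of 1.9 (1.38 to 2.59) and 1.88 (1.41 to 2.52). Hoxd3 was at 8.83 and 9.32 CPM in excitatory-like nuclei, against 4.52 and 7.3 CPM in inhibitory-like nuclei, and its ratio kept an interval above 1 in the injured library, with 1.96 (1.41 to 2.7), but not in the naive library, with 1.28 (0.951 to 1.7). Hoxd4 and other annotated genes overlap 98.6% of the Hoxd3 span on the same strand, and the opposite-strand gene Hoxd3os1 overlaps all of the Hoxd8 span.

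The members of cluster B formed a nearly even base in both neuron classes. Hoxb6 had the highest level of the cluster, with 95.3 and 114 CPM in injured and naive excitatory-like nuclei, against 85.4 and 103 CPM in inhibitory-like nuclei. Hoxb3 followed with 77.1 and 78.6 CPM, against 75.3 and 83.8 CPM. Hoxb2, best known from the hindbrain, was the member that was lower in excitatory-like nuclei in both libraries with intervals below 1: it was at 17.4 and 23 CPM there, against 25 and 36.9 CPM in inhibitory-like nuclei, ratios of 0.697 (0.576 to 0.839) and 0.623 (0.528 to 0.734). Hoxb5 had ratios of 1.23 (1.05 to 1.46) and 1.28 (1.1 to 1.49), at 26.7 and 33.2 CPM against 21.7 and 25.9 CPM.

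Another 4 members of cluster B stayed within 0.796 and 1.07 in their ratios of excitatory-like over inhibitory-like nuclei. Hoxb4 was at 32.8 and 34.1 CPM in injured and naive excitatory-like nuclei, against 33.8 and 42.9 CPM in inhibitory-like nuclei. Hoxb7 was at 21.9 and 31.8 CPM, against 23.6 and 29.8 CPM. Hoxb8 was at 32.6 and 47.3 CPM, against 37.9 and 50.9 CPM. For Hoxb7 and Hoxb8 the values differed more between the libraries than between the classes. Hoxb9 was at 27.4 and 34.3 CPM in excitatory-like nuclei, against 30.8 and 39.6 CPM in inhibitory-like nuclei. The opposite-strand genes Hoxb3os and Hoxb5os overlap all of the Hoxb2, Hoxb5 and Hoxb6 spans and, with Gm11536, 43.4% of the Hoxb3 span; whether counting used the strand is not given in the sources used here.

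Cluster A was carried by Hoxa7, Hoxa9 and Hoxa10, whose levels were alike in excitatory-like and inhibitory-like nuclei. Hoxa7 was at 70 and 78.9 CPM in injured and naive excitatory-like nuclei, against 69.7 and 78.6 CPM in inhibitory-like nuclei. Hoxa9, known in mice as a partner of Meis1 in leukaemia, was at 60.9 and 60.6 CPM, against 62.9 and 72.6 CPM, and its ratio was under 1 in the naive library, with 0.835 (0.752 to 0.926). Hoxa10, a gene of lumbar motor neurons, was at 21.3 and 24.9 CPM, against 20.1 and 22.5 CPM. Hoxa2, the anterior member known from the second branchial arch, was at 2.75 and 2.3 CPM in excitatory-like nuclei, against 0.882 and 1.95 CPM in inhibitory-like nuclei, and Gm28308 overlaps 61% of its span on the same strand. Hoxa11 had 2 and 12 UMIs in injured and naive excitatory-like nuclei, against 9 and 2 in inhibitory-like nuclei. The unnamed nuclei held 14 of its 27 UMIs in the injured and 16 of its 36 UMIs in the naive library.

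**Figure D3:**
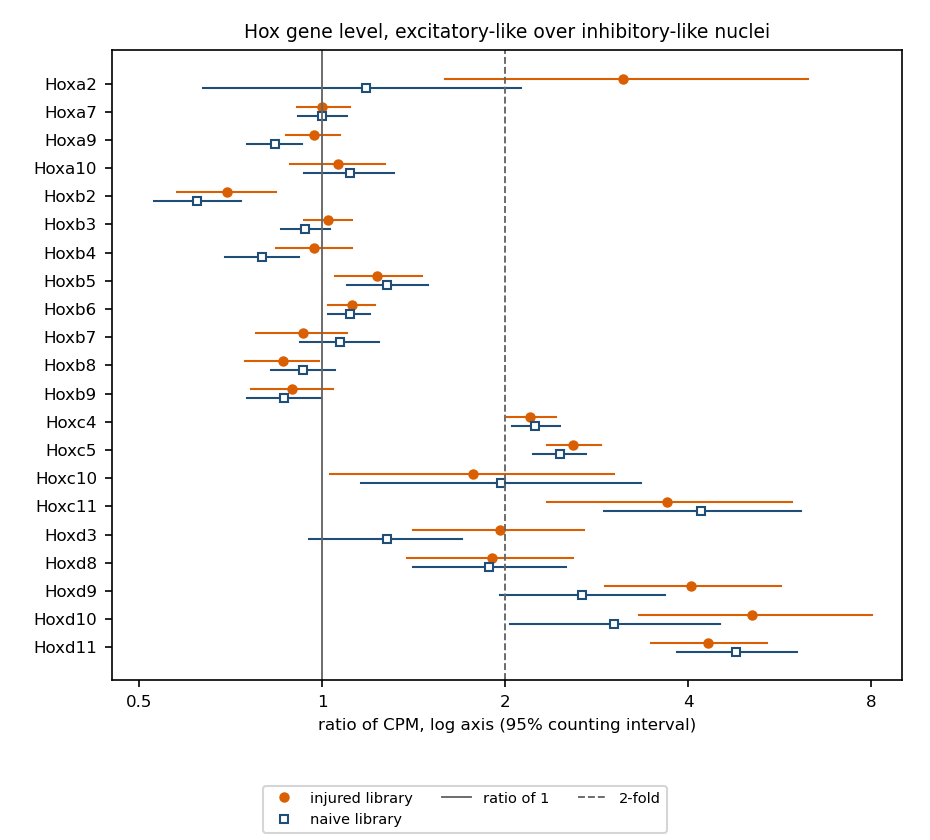
Ratio of CPM in excitatory-like over inhibitory-like nuclei (log axis, 95% counting interval) for the 21 members with at least 100 UMIs, in the injured and the naive library. Hoxc4, Hoxc5, Hoxc11, Hoxd9, Hoxd10 and Hoxd11 lie past 2-fold in both libraries, and Hoxb2 lies under 1 in both.

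Of the 20 members with at least 100 UMIs over the classes and libraries compared, 6 were at least 2-fold higher in excitatory-like nuclei in both libraries: Hoxc4, Hoxc5, Hoxc11, Hoxd9, Hoxd10 and Hoxd11. Over all 13705 genes counted in the same way the share was 4.82%. None of the 20 was 2-fold lower in both, against 3.74% of all genes. The median log2 ratio of the 20 members was 0.23 in the injured and 0.25 in the naive library, and that of all genes 0.024 and 0.023. Without the 6 members that another gene overlaps by over 40% on the same strand, Hoxc4, Hoxc11 and Hoxd9 were past 2-fold of 15 counted, and the summed ratio was 1.13 in the injured and 1.09 in the naive library. Nuclei with only Y-linked UMIs, where 15 members passed the minimum, gave Hoxc4, Hoxc5 and Hoxd11.

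The order of the levels depended on the scale. In CPM, Hoxc4, Hoxc5 and Hoxb6 led in excitatory-like nuclei, at 105, 95.9 and 95.3 CPM in the injured library. In inhibitory-like nuclei Hoxb6, Hoxb3 and Hoxa7 led, at 85.4, 75.3 and 69.7 CPM in the injured library. The leading 3 of the excitatory-like nuclei had overlapping intervals in the injured library. Per kb of gene span, short genes of cluster B moved up: Hoxb6, Hoxb4 and Hoxb5 led in injured excitatory-like nuclei, at 10.5, 9.73 and 9.59 CPM per kb, and Hoxb8, Hoxb4 and Hoxa7 in injured inhibitory-like nuclei, at 11.1, 10 and 9.47 CPM per kb.

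The split of clusters C and D also ran through the single clusters of nuclei. Of these, 6 excitatory-like and 10 inhibitory-like clusters held at least 100 nuclei. With both libraries summed, Hoxc4 was at 74.5 to 123 CPM in the excitatory-like clusters, against 11.2 to 63.6 CPM in the inhibitory-like clusters. Hoxc5 was at 68.9 to 112 CPM, against 9 to 52.4 CPM. The 2 ranges did not overlap for Hoxc4, Hoxc5, Hoxd8 and Hoxd9, 4 of 20 members counted, against 1.17% of all genes. Hoxb2 had all excitatory-like clusters (13.1 to 23.8 CPM) below all inhibitory-like clusters (25.6 to 36.5 CPM), the only member to do so, against 0.558% of all genes.

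**Figure D4:**
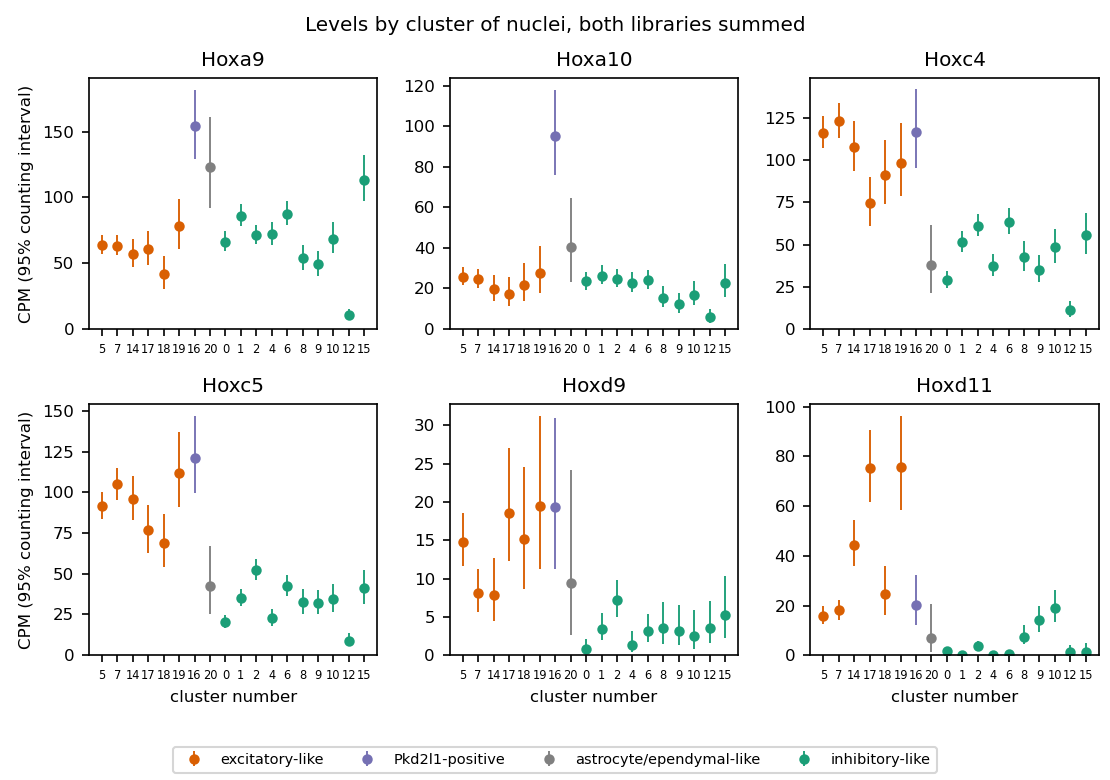
Level in CPM (95% counting interval, both libraries summed) of Hoxa9, Hoxa10, Hoxc4, Hoxc5, Hoxd9 and Hoxd11 in each cluster of nuclei with at least 100 nuclei, coloured by class. Hoxc4 and Hoxc5 keep the excitatory-like above the inhibitory-like clusters, Hoxd11 peaks in clusters 17 and 19, and cluster 12 is lowest for Hoxa9, Hoxc4 and Hoxc5.

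Hoxd11 varied 4.75-fold among excitatory-like clusters. It was highest in cluster 19, led by Tshr and Calcrl, with 72.2 CPM in the injured and 78.6 CPM in the naive library, and in cluster 17, led by the estrogen receptor gene Esr1, with 77.4 and 72.8 CPM. It was lowest in cluster 5, with 15.9 CPM over both libraries. Cluster 19 also had the highest Hoxc11, with 44.7 CPM (39 UMIs), and the highest Hox sum, with 939 CPM in the injured and 1161.8 CPM in the naive library. Cluster 17 had the highest Hoxd10, with 23.5 CPM (34 UMIs), and the lowest Hoxb9, with 7.59 CPM (11 UMIs), against 50 CPM in cluster 5. Cluster 17 was thus at the high end for Hoxd10 and Hoxd11 and at the low end for Hoxb9. Among inhibitory-like clusters Hoxd11 reached 18.9 CPM in cluster 10.

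In single excitatory-like nuclei, Hoxd10 was seen more often beside Hoxd11. It was found in 17.2% (11.7% to 23.9%) of 163 injured nuclei with a Hoxd11 UMI, against 6.24% (4.5% to 8.4%) of 641 without. In the naive library it was found in 15.1% (10.1% to 21.4%) of 172 nuclei with a Hoxd11 UMI, against 4.53% (3.16% to 6.27%) of 751 without. Nuclei with a Hoxd11 UMI were deeper, with medians of 10621 against 9871 UMIs (injured) and 8740 against 8019 UMIs (naive), and the part of this in the result was not tested. Hoxc11, on another chromosome, was found in 9.82% against 4.99% of the same nuclei in the injured library and in 22.1% against 4.79% in the naive library. Hoxc4 was found in 57.1% against 62.4% (injured) and 57% against 59.3% (naive) of excitatory-like nuclei, but in 46.7% against 28.9% (injured) and 36.3% against 27.4% (naive) of inhibitory-like nuclei with and without a Hoxd11 UMI, whose median depths were 9694 against 7792 and 8382 against 6622 UMIs. The predicted gene shared by the Hoxd10 and Hoxd11 spans can also join their counts.

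Among inhibitory-like clusters, cluster 12, led by Cdh9 and Rgs6, had a Hox sum of 327 CPM in the injured and 446 CPM in the naive library, against a median of 678 CPM over the 10 clusters with both libraries summed. Hoxa7, Hoxa9, Hoxa10, Hoxb2, Hoxb3, Hoxb8, Hoxb9, Hoxc4, Hoxc5 and Hoxc10 had their lowest level among these clusters there, and Hoxd3 had its highest, at 11.7 CPM (26 UMIs). Hoxa9 was at 5.25 CPM (6 UMIs) and 15.7 CPM (17 UMIs), Hoxc4 at 14 CPM (16 UMIs) and 8.34 CPM (9 UMIs), and Hoxc5 at 12.2 CPM (14 UMIs) and 5.56 CPM (6 UMIs). Hoxb6 in the same nuclei was at 82.2 CPM in the injured and 112 CPM in the naive library. Cluster 15, led by Nos1 and Gm29771, was at the other end, with Hoxa9 at 122 and 107 CPM. Over the 10 clusters Hoxa9 therefore ranged from 10.3 to 113 CPM, and Hoxb6 from 81.5 to 115 CPM.

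Pkd2l1-positive nuclei, which carry the channel gene of neurons that contact the cerebrospinal fluid, had the highest Hox sum among the named classes. It was 993 CPM (886 to 1108.2) in the injured and 928 CPM (850 to 1011.4) in the naive library, against 597 and 711 CPM in inhibitory-like nuclei, ratios of 1.66 (1.48 to 1.86) and 1.31 (1.19 to 1.42). In the naive library the interval overlapped those of excitatory-like and astrocyte/ependymal-like nuclei, so the top rank was not resolved there. Hoxa10 stood out, with 84.8 CPM (27 UMIs) and 101 CPM (57 UMIs), against 20.1 and 22.5 CPM in inhibitory-like nuclei, ratios of 4.22 (2.74 to 6.24) and 4.49 (3.34 to 5.94). Hoxa9 was at 126 and 170 CPM, against 62.9 and 72.6 CPM, ratios of 2 (1.42 to 2.74) and 2.35 (1.89 to 2.89). Set against excitatory-like nuclei, Hoxa10 had ratios of 3.97 (2.55 to 5.97) and 4.06 (2.97 to 5.46). Hoxa11, with 2 and 6 UMIs, was at 6.28 and 10.7 CPM, against 0.496 and 0.111 CPM in inhibitory-like nuclei.

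Members of clusters C and D were also higher than in inhibitory-like nuclei. Hoxc4 was at 148 and 99.4 CPM in injured and naive Pkd2l1-positive nuclei, and Hoxc5 at 151 and 105 CPM, against 47.8 and 51.2 CPM of Hoxc4 and 37 and 40.2 CPM of Hoxc5 in inhibitory-like nuclei. Hoxd9 was at 18.8 CPM (6 UMIs) and 19.5 CPM (11 UMIs), Hoxd11 at 22 CPM (7 UMIs) and 19.5 CPM (11 UMIs), and Hoxc11 at 9.42 CPM (3 UMIs) and 19.5 CPM (11 UMIs). These rest on few molecules. Cluster C as a sum was 3.52-fold (2.84 to 4.32) and 2.37-fold (1.96 to 2.84) that of inhibitory-like nuclei, and cluster D 3.13-fold (1.92 to 4.86) and 2.77-fold (1.96 to 3.81). Against excitatory-like nuclei the cluster D ratios were 0.958 (0.589 to 1.48) and 1.04 (0.74 to 1.43), so a difference of that size was not detectable at this depth.

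Cluster B was not higher in Pkd2l1-positive nuclei. It was at 342 and 270 CPM in injured and naive Pkd2l1-positive nuclei, against 333 and 413 CPM in inhibitory-like nuclei, ratios of 1.03 (0.842 to 1.24) and 0.653 (0.553 to 0.767). In the naive library Hoxb9 was at 5.33 CPM (3 UMIs), against 39.6 CPM in inhibitory-like nuclei, and Hoxb8 at 17.8 CPM (10 UMIs), against 50.9 CPM, ratios of 0.134 (0.0276 to 0.394) and 0.348 (0.167 to 0.644). In the injured library the same ratios were 0.51 (0.165 to 1.2) for Hoxb9 and 0.58 (0.232 to 1.2) for Hoxb8. Hoxb2, Hoxb4, Hoxb5 and Hoxb7 were between 17.8 and 35.5 CPM in these nuclei, Hoxb3 was at 84.8 and 60.4 CPM, and Hoxb6 at 107 and 78.1 CPM. Of the smaller members, Hoxa2 had 3 and 1 UMIs, Hoxc10 1 and 2, Hoxd3 3 and 9, Hoxd8 3 and 7 and Hoxd10 2 and 3, and Hoxa7 was at 47.1 and 72.8 CPM.

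Of 17 members counted, 5 were at least 2-fold higher in Pkd2l1-positive than in inhibitory-like nuclei in both libraries, Hoxa10, Hoxc5, Hoxd3, Hoxd9 and Hoxd11, against 5.97% of all genes, and none was 2-fold lower in both, against 9.72%. Of these, Hoxd3, Hoxd9 and Hoxd11 rest on few UMIs in Pkd2l1-positive nuclei. Other genes overlap Hoxc5, Hoxd3 and Hoxd11 by over 40% on the same strand, and the count was not repeated without them. The Pkd2l1-positive nuclei of the 2 libraries had unlike sources: 29 injured nuclei had only Xist and 16 only Y-linked UMIs, against 96 and 5 in the naive library. Their part in the differences between the libraries was not tested.

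Glia-like nuclei were of 2 kinds, and the Hox code was seen in the astrocyte/ependymal-like ones. Their sum was 587 CPM (497 to 689) in the injured and 853 CPM (718 to 1005.6) in the naive library, against 597 and 711 CPM in inhibitory-like nuclei. In oligodendrocyte-like nuclei the sum was 57.7 CPM (8 UMIs, 24.9 to 114) and 134 CPM (14 UMIs, 73.5 to 226), ratios of 0.0966 (0.0417 to 0.191) and 0.189 (0.103 to 0.317) to inhibitory-like nuclei. Taken as 1 glia-like group, the ratios were 0.673 (0.572 to 0.787) and 0.809 (0.686 to 0.948). Whether the few oligodendrocyte-like UMIs are free RNA was not tested. Of the members, 12 had 0 UMIs in oligodendrocyte-like nuclei of both libraries. A count of 0 in this class allows up to 21.6 CPM (injured) and 28.8 CPM (naive), so it does not show absence.

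Cluster A took a larger share in astrocyte/ependymal-like than in inhibitory-like nuclei. It made up 38.4% of their Hox UMIs in the injured and 51.8% in the naive library, against 25.8% and 24.7% in inhibitory-like nuclei. Hoxa7 was at 105 CPM (69.2 to 153) and 200 CPM (137 to 280), against 69.7 and 78.6 CPM in inhibitory-like nuclei. Hoxa9 was at 66.1 CPM (38.5 to 106) and 212 CPM (147 to 294), against 62.9 and 72.6 CPM. The values of Hoxb3 and Hoxb4 were lower, with Hoxb3 at 46.7 and 36.3 CPM, against 75.3 and 83.8 CPM in inhibitory-like nuclei, and Hoxb4 at 15.6 CPM (4 UMIs) and 12.1 CPM (2 UMIs), against 33.8 and 42.9 CPM. The interval of the ratio left out 1 only for Hoxb3 in the naive library, with 0.433 (0.159 to 0.945). Neuron RNA was also present: the 4 pan-neuronal markers summed to 1396.1 CPM in injured and 635 CPM in naive astrocyte/ependymal-like nuclei, against 3424.7 and 3149.9 CPM in inhibitory-like nuclei, and its part in these levels was not tested.

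The comparison of the libraries asks whether the adult code differs after the early incision. The Hox sum was lower in the injured library in both neuron classes: the ratio of injured over naive was 0.888 (0.859 to 0.918) in excitatory-like and 0.839 (0.818 to 0.861) in inhibitory-like nuclei. All 6 excitatory-like clusters (0.808 to 0.952) and all 10 inhibitory-like clusters (0.733 to 0.95) had a ratio under 1, and the interval stayed under 1 in 3 and 8 of them. In nuclei with only Xist UMIs the inhibitory-like sum was 595 CPM in the injured and 706 CPM in the naive library, while nuclei that had Y-linked but no Xist UMIs were at 599 and 720 CPM. Short genes as a whole were lower in the injured library. The median log2 ratio in inhibitory-like nuclei was -0.26 over 17 Hox genes, -0.22 over the 2539 genes with a span of at most 10 kb and -0.084 over all 12708 genes, and 16 of the 17 were under 0, against 69.7% of all genes. In excitatory-like nuclei the medians were -0.17 over 19 Hox genes, -0.23 over 1896 short genes and -0.078 over all genes. With size factors set on genes of at most 10 kb, chosen after the values were seen, the ratio of the sum was 0.979 (0.954 to 1) in inhibitory-like and 1.04 (1.01 to 1.08) in excitatory-like nuclei, so the direction in excitatory-like nuclei turned.

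**Figure D5:**
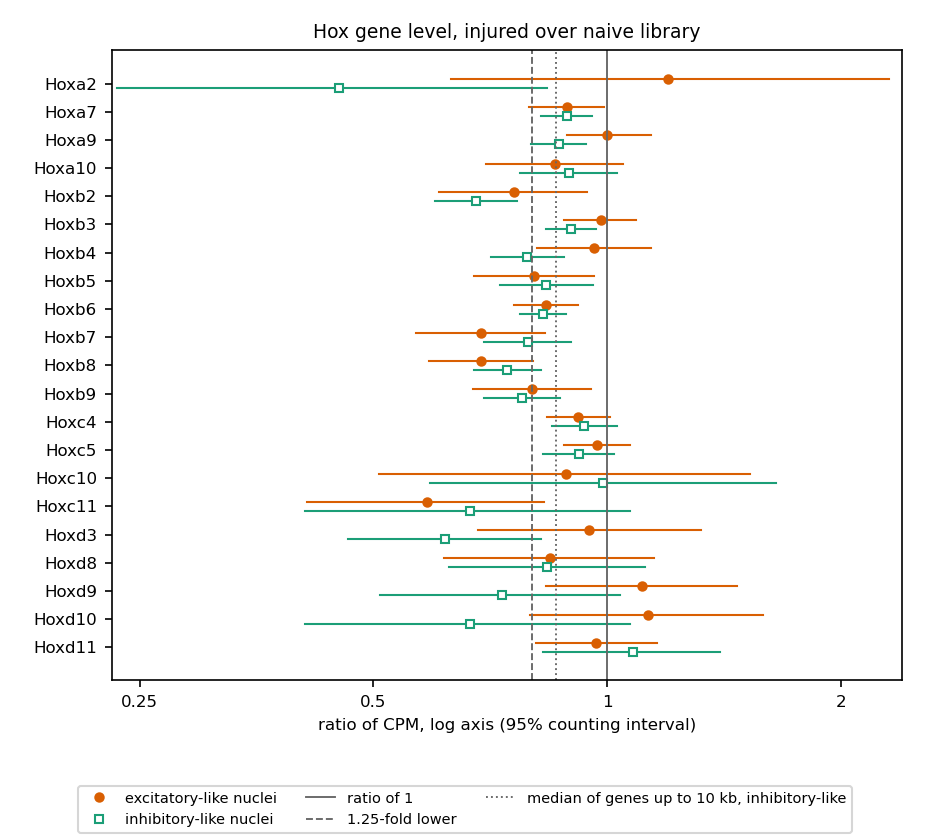
Ratio of CPM in the injured over the naive library (log axis, 95% counting interval) for the 21 members with at least 100 UMIs, in excitatory-like and inhibitory-like nuclei. Most members lie under 1 in both classes, and the dotted line marks the median of genes with a span of at most 10 kb in inhibitory-like nuclei.

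Of 17 members counted in inhibitory-like nuclei, 7 had a ratio of at most 0.8 of injured over naive, Hoxb2, Hoxb4, Hoxb7, Hoxb8, Hoxb9, Hoxd3 and Hoxd9, against 12.4% of all genes, and none was higher by the inverse of that ratio, against 2.14%. Hoxb2 had the largest difference among those of cluster B: 25 CPM (22.8 to 27.4) in the injured and 36.9 CPM (34.1 to 39.8) in the naive library, a ratio of 0.678 (0.6 to 0.765). Hoxb8 had 37.9 CPM (35.1 to 40.8) in the injured and 50.9 CPM (47.7 to 54.4) in the naive library and a ratio of 0.744 (0.673 to 0.822). Hoxd3 had 4.52 CPM in the injured and 7.3 CPM in the naive library and a ratio of 0.619 (0.464 to 0.822). Hoxb4 (0.789), Hoxb7 (0.791) and Hoxb9 (0.777) had intervals that ended at or below 0.9, while that of Hoxd9 (0.732, 0.51 to 1.04) reached 1. With size factors on genes of at most 10 kb, 2 of the 7, Hoxb2 and Hoxd3, were still at or under 0.8, and Hoxd11 was then higher by the inverse.

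In excitatory-like nuclei 4 of 19 members had a ratio of at most 0.8 of injured over naive, Hoxb2, Hoxb7, Hoxb8 and Hoxc11, against 13.9% of all genes, and none was higher by that much, against 1.76%. Hoxb8 had 32.6 CPM in the injured and 47.3 CPM in the naive library and a ratio of 0.688 (0.589 to 0.804), and Hoxb7 had 21.9 and 31.8 CPM and a ratio of 0.688 (0.568 to 0.832). Hoxb2 had a ratio of 0.758 (0.608 to 0.943). Hoxc11 had a ratio of 0.586 (0.411 to 0.829), with 55 UMIs in the injured and 89 in the naive library. Of the 6 members past 2-fold between the classes, the other 5 had intervals that included 1: Hoxc4 had a ratio of 0.918 (0.837 to 1.01), Hoxc5 0.971 (0.881 to 1.07), Hoxd9 1.11 (0.834 to 1.47), Hoxd10 1.13 (0.796 to 1.59) and Hoxd11 0.967 (0.809 to 1.16). With 1 pool in each group, a difference between the conditions and one between the pools cannot be told apart.

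Hox proteins bind DNA with TALE cofactors, homeodomain proteins of the Pbx and Meis families. Among 10 TALE genes in the table, all with enough UMIs, Pbx3, Meis1 and Meis2 were at least 2-fold higher in excitatory-like nuclei in both libraries, and none was 2-fold lower. Pbx3 was at 688 and 634 CPM in injured and naive excitatory-like nuclei, against 39.9 and 25.4 CPM in inhibitory-like nuclei. Meis2 was at 153 and 138 CPM, against 2.42 and 2.4 CPM. Pkd2l1-positive nuclei were higher still in Meis2, with 3056.2 and 2763.8 CPM. TALE genes were not kept out of the clustering, so these levels are a description. Between libraries, Pbx3 was higher in injured inhibitory-like nuclei, with a ratio of 1.57 (1.39 to 1.77), and no TALE gene passed the same limit in excitatory-like nuclei.

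Polycomb and Trithorax genes keep Hox clusters silent or open. None of 19 counted passed 2-fold between excitatory-like and inhibitory-like nuclei in both libraries, near the shares of all genes (4.82% higher and 3.74% lower), and Ezh2, the methyltransferase of Polycomb, was at 36.3 and 37.9 CPM in excitatory-like nuclei, against 41.4 and 42.8 CPM. In excitatory-like nuclei, 2 of 17 counted had a ratio of injured over naive of at most 0.8, against 13.9% of all genes. In inhibitory-like nuclei it was 2 of 19, against 12.4%, so both counts were near the shares of all genes. Men1, a partner of the Trithorax enzyme Kmt2a, was among them in both classes. Its ratios were 0.681 (0.493 to 0.938) in excitatory-like and 0.644 (0.514 to 0.806) in inhibitory-like nuclei. Of 5 Hox-cluster noncoding transcripts counted, none passed 2-fold between excitatory-like and inhibitory-like nuclei in both libraries, a count that the same shares of all genes would also give. Hoxaas3 was at 62.9 and 70.6 CPM in excitatory-like nuclei, against 41 and 46.7 CPM. Hoxb3os was at 24.3 and 25.9 CPM, against 35.3 and 36 CPM, the direction of Hoxb2, whose span it overlaps. Hoxb5os was at 25 and 30.1 CPM, against 36.5 and 43.1 CPM, opposite to Hoxb5 and Hoxb6, whose spans it overlaps. The part of shared counts in these values was not tested. Hotair, with 99 UMIs in all, was at 3.44 and 2.06 CPM, against 0.992 and 0.669 CPM. Of the caudal regulators, 1 of 3 in the table reached 100 UMIs in these classes, Gdf11, at 4.82 and 3.75 CPM against 3.86 and 4.63 CPM. None of the 5 forebrain and midbrain factors in the table reached 100 UMIs.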

How the data were processed

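The authors deposited raw UMI counts per gene and nucleus, and natural log values that equal ln(1 + 10000 × count / total of the nucleus) within 6e-15. Per the submitters' processing notes, Cell Ranger 3.0.2, Seurat (version not given in the sources used here) and mm10 were used; those sources name no annotation and do not say how intronic reads and strand were treated. Nuclei were assigned to libraries by the deposited column names. All 7610 nuclei were used and doublets were not removed.

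Nuclei were clustered in scanpy 1.11.5 (2000 variable genes, 30 components, 15 neighbours, leidenalg 0.10.2 at resolution 1.0), with 150 genes, the Hox loci among them, kept out. Clusters were named from fixed marker lists, with an inhibitory over excitatory transmitter ratio of at least 10 or the inverse of at least 4, set after the data were seen; mixed clusters were split again at 0.5. Counts were summed per class and library and scaled to CPM. Intervals are exact Poisson (levels), Clopper-Pearson (shares) and conditional binomial (ratios), at 95%; PCR and sampling of nuclei are not covered. A count of 0 allows up to 3 counts, 0.0911 CPM in the injured and 0.0980 CPM in the naive library of 32934588 and 30602222 UMIs. Within a class the allowance is larger, up to 21.6 CPM (injured) and 28.8 CPM (naive) in oligodendrocyte-like nuclei. Genes counted past 0.8 (or its inverse) or 2-fold needed 100 UMIs. The call steps were tested on simulated counts. Gene spans, overlaps and sequences are from GENCODE M21 (GRCm38, the same assembly as mm10). Every member with at least 100 UMIs was named, and some genes of each other list. Members and lists were chosen with earlier results of these data known. Alternatives covered scaling, weighting, naming, resolution, doublets, depth, mice and the minimum count. A few genes and sequences are not reported here.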

Additional observations from a re-analysis of the deposited data

Results flagged for a closer look

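A pair of sums of Hox genes had ratios of injured over naive on opposite sides of 1 in different classes, with counting intervals that left out 1; the difference between the classes itself was not tested. The sum of cluster C had a ratio of 1.37 (1.04 to 1.79) in Pkd2l1-positive nuclei, 0.924 (0.866 to 0.986) in excitatory-like and 0.921 (0.86 to 0.986) in inhibitory-like nuclei. The sum of groups 1 to 5 had a ratio of 1.31 in Pkd2l1-positive, 0.931 in excitatory-like and 0.848 in inhibitory-like nuclei. Both sums hold Hoxc4 and Hoxc5, so they are not separate results. Other genes overlap 60.9% of the Hoxc5 span on the same strand. The Pkd2l1-positive values rest on 48 injured and 106 naive nuclei, of which 29 and 96 had only Xist UMIs.

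The unnamed nuclei, used in no comparison, also carried Hox RNA, with a sum of 598 CPM (577 to 619) in the injured and 728 CPM (701 to 757) in the naive library, far above what a count of 0 allows.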

How the results depend on the processing

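No paired analysis was possible because each group is 1 pooled library, and no replicate could be left out. Of 151 values under 15 alternative settings, 3 of them added after the data were seen, 131 kept their direction and size (on the deposited natural log scale, direction alone was compared), 19 differed by more than the counting interval or by over 1.5-fold in a count, and 1 turned direction; the causes were not tested. Size factors over genes of at most 10 kb turned the ratio of injured over naive in excitatory-like nuclei to 1.04, and gave 0.979 in inhibitory-like nuclei, with 2 members at or under 0.8 and 1 (Hoxd11) past the inverse. Median-of-ratios size factors gave 0.937 in excitatory-like and 0.89 in inhibitory-like nuclei, with 4 members lower. Nuclei with only Xist UMIs gave 4 lower and 1 higher, and dropping the minimum count gave 1 higher (Hoxa11). Leaving out members overlapped on the same strand gave 1.13 (injured) and 1.09 (naive) for excitatory-like over inhibitory-like nuclei, 3 members past 2-fold, and 1.45 for injured Pkd2l1-positive over inhibitory-like nuclei. Nuclei with only Y-linked UMIs also gave 3 members past 2-fold. The ratio of glia-like over inhibitory-like nuclei in the injured library was 0.554 as a mean within nuclei, 0.551 without the 10% deepest nuclei and 0.535 with only Y-linked UMIs; in the naive library it was 0.95 with only Xist and 0.441 with only Y-linked UMIs. Allowing Hox genes in the clustering left 12 of the 131 values as they were by construction, since 0 Hox genes were among the variable genes, and does not show whether the classes depend on them. Depth limits the members with few UMIs and the small classes.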
